A study of Mus musculus with 60 samples.

Results

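Genes of the mitochondrial respiratory chain and of ATP synthase were followed in the mouse hippocampus after a single dose of a blocker of the NMDA glutamate receptor. The set held every gene on the array whose symbol begins with Nduf (complex I, NADH dehydrogenase), Sdh (complex II, succinate dehydrogenase), Uqcr (complex III, the cytochrome bc complex), Cox followed by 4 to 8 (nuclear subunits of complex IV, cytochrome c oxidase) or Atp5 (ATP synthase). It comprised 91 genes of 19057 named on the array, measured by 142 probes. Where a gene had several probes (38 genes), the probe with the highest mean signal stood for it.

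Male C57BL/6J mice of 8 to 10 weeks were given saline i.p. or 1 of 3 drugs, ketamine at 20 mg/kg, the dementia drug memantine at 15 mg/kg, or phencyclidine (PCP) at 5 mg/kg, and tissue was taken after 1, 2, 4 or 8 h. Naive control mice were sampled at the same times. Each of the 20 groups had 3 Illumina MouseWG-6 arrays, 60 in all, and each array held hippocampal RNA of 2 mice pooled, so the spread of a group is one between pools. The 10 slides, each with 6 arrays, follow the order of the samples in the series, and the sample titles name no slide. On 7 arrays, from 2 slides, the background was high (5th percentile of intensity 314.1 to 859.5, against 99.71 to 240.1 on the other 53). Of the 16 neuronal and hippocampal markers measured, all but Snap25 and Neurod6 lay in the brighter 50% of the probes, while the mean log2 signal of 7 choroid plexus markers ranged from 7.71 to 11.33 and that of 6 striatal markers from 8.46 to 11.70 between arrays.

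Complexes I to IV pass electrons from NADH and succinate to oxygen. Complexes I, III and IV pump protons out of the mitochondrial matrix, and ATP synthase uses the returning protons to make ATP. Neurons depend heavily on this pathway to pay for ion pumping and synaptic transmission. Most subunits are encoded in the nucleus, a core of them in mitochondrial DNA, and several complex IV subunits exist as a common form and a form restricted to certain tissues such as muscle.

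The promoters of a few members are shown because the members' mRNA moved together between arrays, as described below, and because nuclear genes of this pathway are known targets of NRF1 and of ETS factors such as GABPA. Whether such sites go with the movement was not tested. The windows run from 250 bases before to 50 bases after the start of the gene in RefSeq (GRCm38.p6). Capitals mark matches, on either strand, to GCGCATGCG (NRF1), CCGGAAG (ETS), AAGATGGC (YY1), TCAAGGTCA (ERR alpha) or GGGCGGG (SP1). Ndufa11 and Uqcr11, an accessory subunit of complex I and a small subunit of complex III, hold NRF1 letters, Ndufb7 was the member that moved most with the others, Sdha was among those that moved least with them, and Cox8b and Cox7a1 are restricted forms that stood out below.
Ndufa11, chr17:56717512-56717811, plus strand: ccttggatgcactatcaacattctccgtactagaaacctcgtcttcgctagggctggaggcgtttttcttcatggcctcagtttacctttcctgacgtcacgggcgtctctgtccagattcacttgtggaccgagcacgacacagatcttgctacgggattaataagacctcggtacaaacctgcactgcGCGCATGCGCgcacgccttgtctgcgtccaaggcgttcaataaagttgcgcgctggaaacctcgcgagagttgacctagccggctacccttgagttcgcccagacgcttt
Uqcr11, chr10:80406772-80407071, minus strand: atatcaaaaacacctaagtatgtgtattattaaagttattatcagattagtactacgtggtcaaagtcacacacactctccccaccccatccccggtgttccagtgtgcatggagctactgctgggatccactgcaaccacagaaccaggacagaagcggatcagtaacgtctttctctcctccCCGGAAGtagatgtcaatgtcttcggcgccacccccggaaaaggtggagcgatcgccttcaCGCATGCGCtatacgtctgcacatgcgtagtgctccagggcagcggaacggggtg
Ndufb7, chr8:83566508-83566807, plus strand: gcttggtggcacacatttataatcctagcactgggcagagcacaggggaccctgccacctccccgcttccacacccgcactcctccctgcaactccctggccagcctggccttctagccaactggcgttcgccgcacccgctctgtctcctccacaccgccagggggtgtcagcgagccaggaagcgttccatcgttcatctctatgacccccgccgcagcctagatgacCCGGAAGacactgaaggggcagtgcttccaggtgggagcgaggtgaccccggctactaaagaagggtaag
Sdha, chr13:74350191-74350490, minus strand: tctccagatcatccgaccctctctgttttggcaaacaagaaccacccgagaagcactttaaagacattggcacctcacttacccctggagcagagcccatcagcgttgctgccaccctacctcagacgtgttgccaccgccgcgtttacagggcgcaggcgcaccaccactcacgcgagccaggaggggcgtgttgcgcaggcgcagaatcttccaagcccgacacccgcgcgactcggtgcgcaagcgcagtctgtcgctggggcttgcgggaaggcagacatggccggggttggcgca
Cox8b, chr7:140900397-140900696, minus strand: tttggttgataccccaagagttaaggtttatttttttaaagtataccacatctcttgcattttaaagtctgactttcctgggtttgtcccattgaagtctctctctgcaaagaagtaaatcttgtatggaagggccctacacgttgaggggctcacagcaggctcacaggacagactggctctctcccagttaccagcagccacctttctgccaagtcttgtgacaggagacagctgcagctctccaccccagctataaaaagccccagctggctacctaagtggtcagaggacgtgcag
Cox7a1, chr7:30183921-30184220, plus strand: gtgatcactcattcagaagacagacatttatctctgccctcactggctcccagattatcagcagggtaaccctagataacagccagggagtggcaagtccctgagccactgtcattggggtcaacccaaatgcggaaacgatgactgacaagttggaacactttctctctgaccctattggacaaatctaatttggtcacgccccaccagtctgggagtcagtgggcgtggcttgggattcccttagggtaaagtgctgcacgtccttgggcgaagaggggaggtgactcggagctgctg

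NRF1 letters were found in the windows of 10 of the 76 members with a window (13.2%) in 1.81% of all 27025 genes with one and in 2.56% of the 15207 of these on the array. The other members with an NRF1 match were Uqcrc1, Cox6a1, Atp5g2, Atp5k, Atp5l, Ndufa8, Ndufaf4 and Ndufaf5. The 2 matches in Ndufa11 overlap, 1 on each strand. ETS letters were in 26.3% of the members' windows, 9.12% of all and 12.7% of those on the array, and YY1 letters in 13.2%, 2.88% and 3.49%. ERR alpha letters were in 2.63%, 0.407% and 0.302%. SP1 letters were in 39.5% of the members' windows and 25.8% of all, but in 36.7% of those on the array, a share close to that of the members. The windows of Sdha, Cox8b and Cox7a1 held none of the 5. Nor did that of Ndufb3, which moved with the other members almost as much as Ndufb7 (mean correlation 0.35, against 0.36).

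The 91 genes comprised 6 core subunits, 28 accessory subunits and 8 assembly factors of complex I, 4 subunits and 4 assembly factors of complex II, 7 subunits of complex III, 10 common and 7 tissue-restricted subunits of complex IV, and 5 F1 and 11 Fo or stalk subunits of ATP synthase. One more, Ndufs5-ps, is named as a pseudogene. Ndufa4, despite its symbol, was counted among the common complex IV subunits, as was Cox7a2l. Signals were high for most, and 84 members lay in the brighter 50% of the array's probes. The dim members were Ndufs1 and Sdha, large catalytic subunits of complexes I and II, Uqcrfs1, the iron-sulfur protein of complex III, the assembly factor Ndufaf6, and the restricted complex IV forms Cox4i2, Cox7b2 and Cox8c. The SD of a member within groups had a median of 0.167 on the log2 scale (range 0.0935 to 0.659), against 0.227 for the brighter 50% of all probes.

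No member passed the test with any drug when the 4 time points were averaged. In limma's test, adjusted over all probes by Benjamini-Hochberg, 0 of 91 members passed an adjusted p of 0.05 with ketamine (0.00221% of all probes passed), with memantine (0.0243%) or with PCP (0.00221%). At an unadjusted p under 0.05 there were 4 members with ketamine (4.4%, against 6.5% of all probes), 1 with memantine (1.1%, against 3.46%) and 2 with PCP (2.2%, against 3.85%). The median log2 difference of the 91 members from saline was 0.007 with ketamine, 0.015 with memantine and -0.016 with PCP, and that of all probes was 0.003, 0.001 and 0.003. Of the 91 members 46, 50 and 39 lay above saline. The 95% intervals typically reached 0.15, 0.17 and 0.16 to either side (median), and for 90, 89 and 88 members the whole interval lay within 0.5 of no difference. The 3 drugs share the saline arrays and were each given at a dose of their own, so their values are set side by side.

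Several large or central subunits of the 5 complexes, chosen as examples of their roles, showed small differences. Ndufv1 and Ndufv2, which form the NADH-binding end of complex I, differed from saline by 0.10 and 0.08 with ketamine (SE 0.07 and 0.06), 0.05 and 0.07 with memantine, and 0.10 and 0.07 with PCP. Sdhb, the iron-sulfur subunit of complex II, differed by -0.02, -0.01 and -0.14 (SE 0.07 to 0.08). Uqcrc1 and Uqcrc2, the core proteins of complex III, differed by 0.01 and 0.07 with ketamine, by -0.01 and 0.00 with memantine and by 0.03 and 0.04 with PCP. Cox4i1 and Cox5a, the common forms of 2 complex IV subunits, differed by at most 0.07 with any drug, and Atp5b, the catalytic beta subunit of ATP synthase, by 0.09, 0.06 and 0.07. None of these passed. Ndufs1, whose probe is dim, differed by -0.21 with memantine (SE 0.12, 95% interval -0.47 to 0.04).

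**Figure D1:**
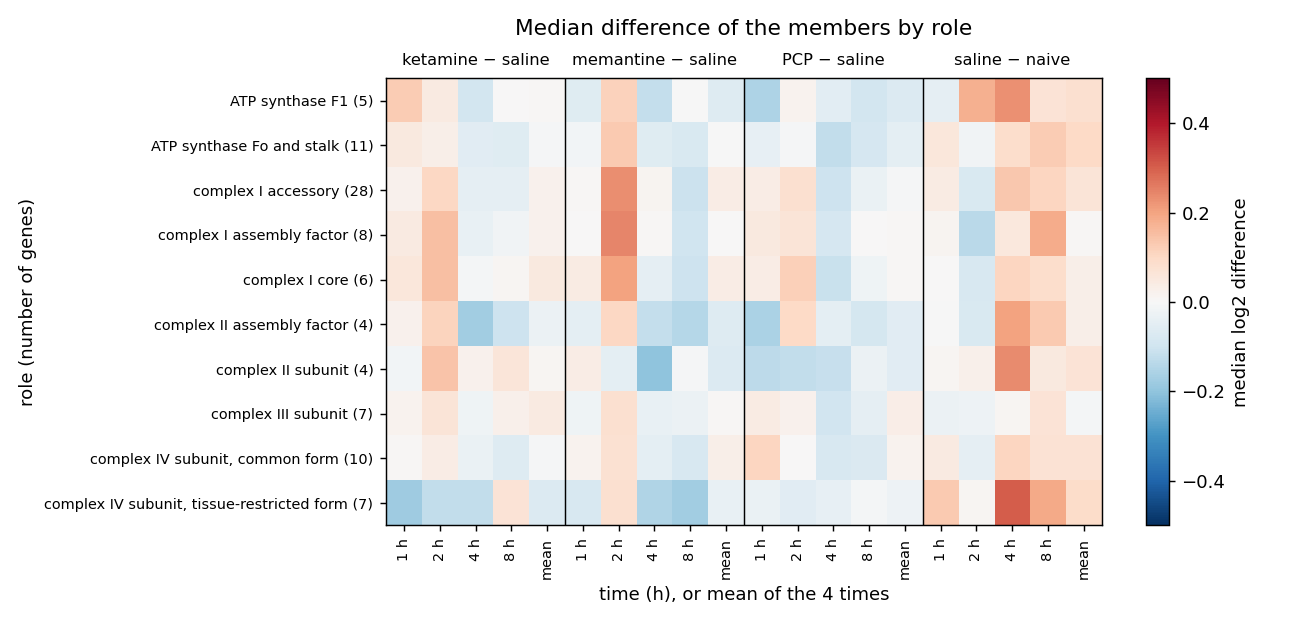
Median log2 difference of the members of each role (rows, with the number of genes) for each drug against saline and for saline against naive mice, at each time and as the mean of the 4 times (columns). Blue is lower and red higher; the highest medians are 0.301 for restricted complex IV forms between saline and naive mice at 4 h and 0.246 for complex I assembly factors with memantine at 2 h, and no member passed the test in any column.

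The smallest unadjusted p with ketamine and with memantine belonged to Ndufb11, an accessory subunit of the membrane arm of complex I. Its log2 level on saline arrays was 7.18 at the lowest, 7.71 at the median and 7.96 at the highest (n = 12), against 7.63, 7.83 and 8.10 with ketamine and 7.53, 7.82 and 8.56 with memantine, so the groups overlapped. The lowest saline arrays were those at 1 and 2 h (7.18 and 7.19). The difference from saline was 0.21 with ketamine (SE 0.09, adjusted p = 0.753 from limma), 0.24 with memantine (SE 0.10, adjusted p = 1) and 0.09 with PCP (SE 0.10, adjusted p = 1). The other Ndufb11 probe differed by 0.14, 0.11 and -0.09. The saline array at 7.19 and the memantine array at 8.56 were among the 7 of high background, and without those 7 arrays Ndufb11 differed by 0.15 with ketamine and 0.11 with memantine. Sdhc, a membrane anchor of complex II, differed by 0.16 with ketamine (SE 0.07, adjusted p = 0.753). Ndufb4, another accessory subunit of complex I, differed by -0.27 and Ndufa3 by 0.16 with memantine (adjusted p = 1 for both), and Ndufb5 by -0.25 and Atp5a1, the alpha subunit of ATP synthase, by -0.24 with PCP (SE 0.10 and 0.11, adjusted p = 1 for both).

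**Figure D2:**
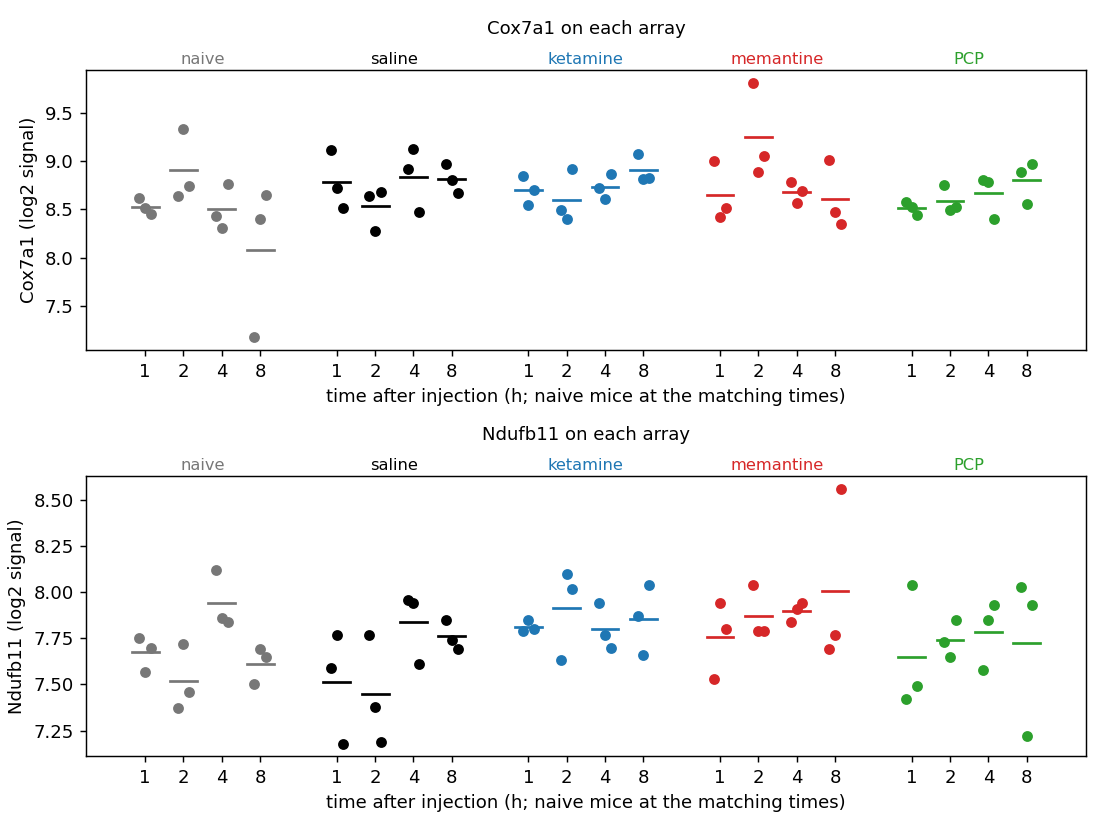
Log2 signal of Cox7a1 (top) and Ndufb11 (bottom) on each of the 60 arrays by treatment and time; points are arrays and lines group means of 3. Cox7a1 reached 9.82 on 1 memantine 2 h array and 7.17 on 1 naive 8 h array, and Ndufb11 was lowest on saline arrays at 1 and 2 h.

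At single time points 0 of 364 tests of members passed with ketamine (0.00166% of all tests of probes passed), memantine (0.0204%) or PCP (0.000552%). Unadjusted p-values under 0.05 were fewer than over all probes with ketamine (4 tests, 1.1% against 3.23%) and PCP (5 tests, 1.37% against 4.97%), and more with memantine (26 tests, 7.14% against 5.72%). The memantine tests came almost all from 2 h, where 22 members had such a p. At 2 h with PCP the smallest were Cox6a1 and Cox4i1, common forms of complex IV (0.33 and 0.28), and Ndufv1 (0.29, adjusted p = 0.525). At 2 h with ketamine it was Ndufb11 (0.47, SE 0.19, adjusted p = 0.652). In that comparison all 6 striatal markers were higher at an unadjusted p under 0.05 (median 1.099, none past the adjusted threshold). Their mean level was 11.70 on replicate 2 of ketamine, 8.73 and 8.93 on replicates 1 and 3, and at most 8.86 on the saline 2 h arrays. Without that replicate Ndufb11 differed by 0.38 and the median member by 0.061, against 0.086 with it. The smallest p at 8 h with memantine was that of Ndufaf2, an assembly factor of complex I (-0.47, SE 0.20, adjusted p = 0.668).

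At 2 h after memantine 75 of 91 members lay above saline, with a median log2 difference of 0.158, and 21 of 91 (23.1%) were higher at an unadjusted p under 0.05, against 5.63% of all probes. None passed the adjusted threshold. The median of all probes was 0.004 and that of the brighter 50%, where 84 members lie, 0.040. In either direction 22 members (24.2%) had such a p, against 10.7% of all probes and 12.7% of the brighter 50%. Against the same saline arrays 70 members lay above with ketamine (median 0.086) and 58 with PCP (0.042), while saline lay below naive mice (-0.067), so the saline arrays at 2 h enter all 4 values. Counts as one-sided were seen in other comparisons. With saline at 4 h 76 of 91 members lay above naive mice. Only 18 lay above saline with memantine at 8 h, and 20 with PCP at 4 h. The memantine shift at 2 h was seen across complex I, with medians of 0.231 for accessory subunits (25 of 28 above 0), 0.200 for core subunits (5 of 6) and 0.246 for assembly factors (7 of 8). It was 0.132 for Fo and stalk subunits of ATP synthase (10 of 11), 0.079 for complex III (7 of 7), 0.077 for common forms of complex IV (7 of 10) and -0.049 for complex II subunits (2 of 4). The 51 other probes of these genes had the sign of the brightest probe in 38 cases, and none passed. In the same comparison 2 of 8 neuronal markers lay above saline (median -0.175), as did 1 of 6 microglial (-0.211), 2 of 6 endothelial (-0.142) and 2 of 6 astrocyte markers (-0.128). Above saline lay 6 of 8 markers of pericytes and smooth muscle (0.115), 3 of 5 of interneurons (0.112) and 4 of 6 of the striatum (0.122), while hippocampal neurons had a median of -0.038. None passed the test, and the part of cell makeup in the shift was not tested.

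Cox7a1, the muscle and heart form of a small complex IV subunit, gave the smallest p at that time. Its level was 9.82, 8.89 and 9.06 on the memantine 2 h arrays and 8.64, 8.28 and 8.68 on the saline 2 h arrays, a difference of 0.72 (SE 0.24, adjusted p = 0.247 from limma). All memantine arrays lay above all saline arrays, and without replicate 1 of memantine the difference of Cox7a1 was 0.44. Ndufa3, an accessory subunit of complex I, was at 13.96, 13.43 and 13.56 against 13.39, 12.86 and 13.27 (difference 0.48, SE 0.16, adjusted p = 0.248). Atp5l, the g subunit of the Fo part of ATP synthase, was at 15.04, 14.52 and 14.58 against 14.51, 14.27 and 14.40 (difference 0.32, SE 0.12, adjusted p = 0.302). Neither gene overlapped between the groups, but all 3 were named for their smallest p, and the share of probes without overlap was not counted. In each of the 3 genes replicate 1 of memantine was the highest array. Ndufs1 went the other way by -0.47 (SE 0.21, adjusted p = 0.421) and Sdha by -0.37 (SE 0.23, adjusted p = 0.578), both by dim probes.

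The 2 h shift rested on few arrays, and replicate 1 of memantine, the highest, also stood apart in choroid plexus markers. Their median deviation from the group mean was -1.419 on it (0 of 7 above), against 0.720 and 0.623 on replicates 2 and 3. Over the 60 arrays, such deviations of the members and of the choroid plexus markers correlated by a mean of only -0.070. The part of the choroid plexus in the shift was not tested. The median member, taken from each gene's mean over all arrays, stood at 0.351, -0.027 and 0.015 on the memantine 2 h arrays and at -0.024, -0.160 and -0.069 on the saline 2 h arrays. Without replicate 1 of memantine the median difference was 0.053 and 1 member had an unadjusted p under 0.05, and without replicate 2 of saline 4 members had one. The mitochondrially encoded transcripts of the same complexes (8 measured) had a median of -0.162 at 2 h with memantine, with 1 of 8 above 0 and none past the test. At the other times the members' median with memantine was 0.002 at 1 h, -0.043 at 4 h and -0.081 at 8 h.

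**Figure D3:**
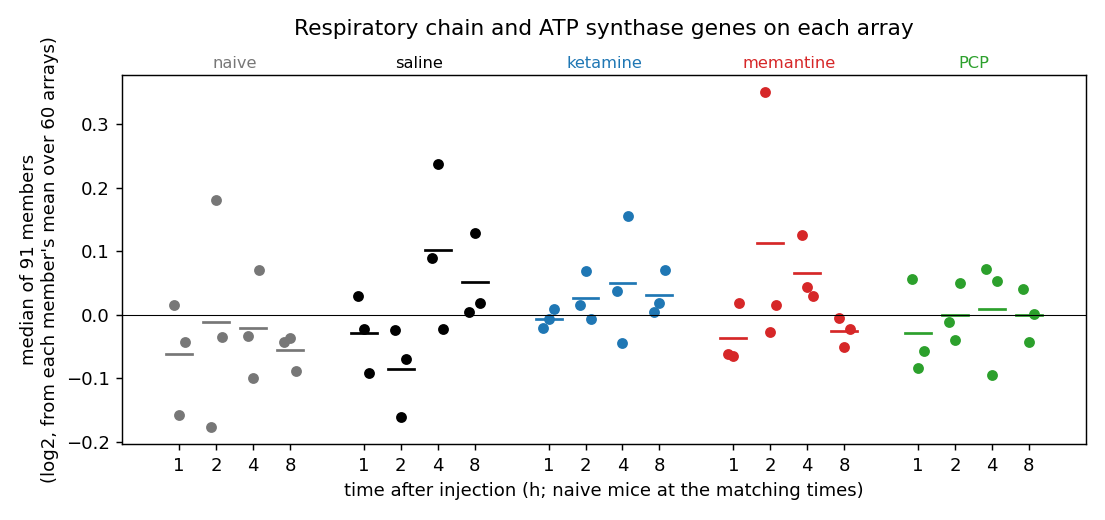
Median of the 91 members on each of the 60 arrays (log2, each gene first set to its mean over all arrays) by treatment and time; points are arrays and lines group means of 3. One memantine 2 h array stands at 0.351 and the other arrays between -0.177 and 0.237.

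The members moved together from array to array within groups. Their deviations from the group means correlated with each other by a mean of 0.197 over the 60 arrays (0.235 among the 84 bright members), against 0.021 between probes of the brighter 50%. This is a description over arrays that share slides. The mean correlation was 0.324 among the accessory subunits of complex I, 0.194 among the Fo and stalk subunits of ATP synthase, 0.167 among the common forms of complex IV and 0.080 among the core subunits of complex I. Members correlated with cytosolic ribosomal proteins (55 genes, chosen after the values were seen) by a mean of 0.169, and with tricarboxylic acid cycle enzymes and mitochondrially encoded transcripts by 0.071 and 0.029. Among themselves the ribosomal proteins correlated by a mean of 0.143, so such movement was not particular to the members. Ndufb7 (0.36), Ndufb3, Ndufs7 and Ndufa5 (0.35 each) went most with the other members, and Uqcrc2 (-0.15) and Sdha (-0.09) least. Atp5b and Atp5c1, the beta and gamma subunits of the F1 part of ATP synthase, were at 0.01 and 0.00.

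On 9 arrays, from 5 groups, more than 80% of the members lay on one side of their group's mean. These arrays were picked for that share, and in a group of 3 a high array places the others below the mean, so the values are a description and the arrays of a group are not independent. Replicate 1 of memantine at 2 h had 83 of 91 members above (median deviation 0.255), and replicates 2 and 3 of that group, which stood at -0.027 and 0.015 from the mean of all arrays, had 13 and 18 above. Replicate 1 of naive mice at 2 h had 7 above (-0.181) and replicate 2 had 76 above (0.183). Replicate 2 of saline at 4 h had 77 above, replicates 2 and 3 of ketamine at 4 h 18 and 78, and replicate 1 of PCP at 1 h 76. Over all 60 arrays the share of bright probes above their group mean ranged from 37.4 to 61.9%. The median of the ribosomal proteins was on the members' side on each of the 9 (-0.148 to 0.156), and that of the mitochondrially encoded transcripts on 5 of the 9 (-0.245 to 0.142).

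Slides went with this movement. On slides 1 and 2 the median member lay below the group mean on 6 of 6 arrays each, and on slides 8, 9 and 10 above it on 5, 5 and 6 of 6. Slides 8 to 10 had the lowest backgrounds, with 5th percentiles from 99.7 to 120. The arrays of a slide were often of different times, so each was first taken from the mean of both treatments at its time. Within slides, the members' median difference from saline then ranged from -0.170 to 0.090 with ketamine (above 0 on 7 of 10 slides). It ranged from -0.072 to 0.166 with memantine (7 of 10) and from -0.152 to 0.080 with PCP (5 of 10). The part of the slide in the shared movement was not tested.

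**Figure D4:**
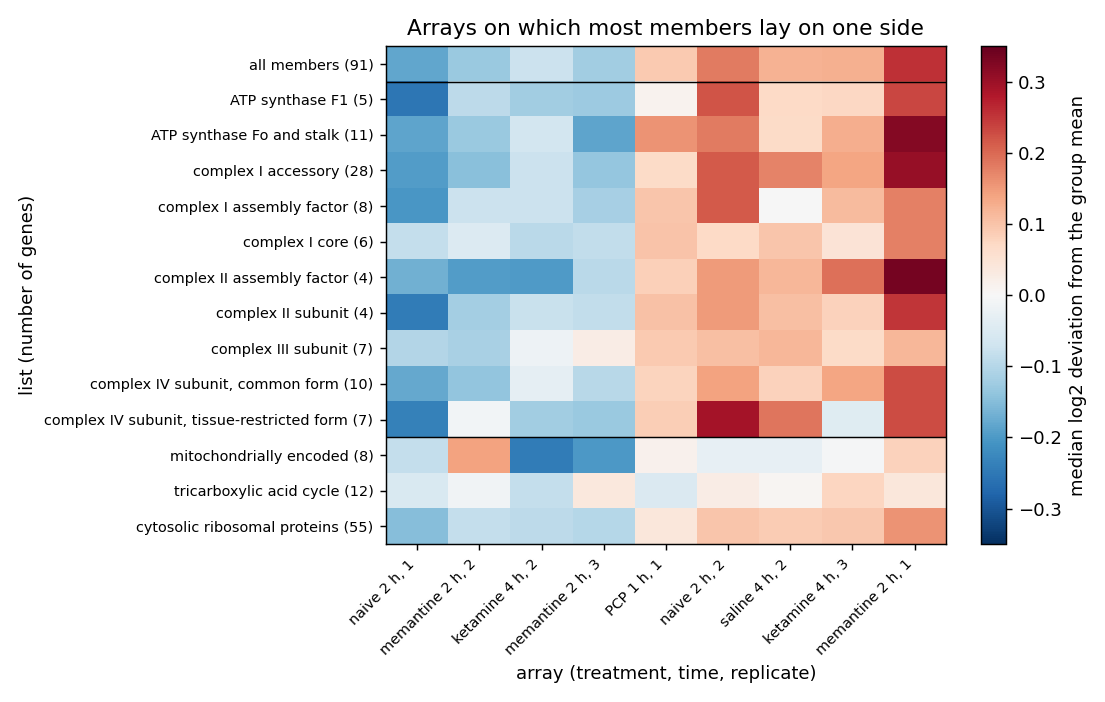
Median log2 deviation from the group mean for all members, each role and 3 further lists (rows, with the number of genes) on the 9 arrays (columns; treatment, time, replicate) on which more than 80% of the members lay on one side. The deviation of all members runs from -0.181 on naive 2 h replicate 1 to 0.255 on memantine 2 h replicate 1.

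Saline-treated mice were compared with naive mice. No member passed in the mean of the 4 times (0 of 91, with 0.00221% of all probes past) or at single times (0 of 364, with 0.0011%). Unadjusted p-values under 0.05 numbered 1 (1.1%, against 3.24% of all probes) and 8 (2.2%, against 4.99%). The median member lay 0.061 above naive mice, with 68 of 91 above 0, and the median of all probes was -0.001. At single times the median was 0.026 (1 h), -0.067 (2 h), 0.105 (4 h) and 0.099 (8 h), with the opposite sign at 2 h. After Cox8b the smallest p-values were those of Atp5j2 (0.13, SE 0.07, adjusted p = 1 from limma) and the dim Sdha (0.20, SE 0.11, adjusted p = 1). Within slides, with each array again taken from the mean of both treatments at its time, the members' median difference from naive mice ranged from -0.104 to 0.270.

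Cox8b, the muscle and brown fat form of complex IV subunit 8, had the largest spread of all members (SD 0.659 within groups) and the smallest p between saline and naive mice. Its level ran from 7.04 through a median of 8.52 to 9.13 in saline-treated mice and from 6.95 through 7.89 to 9.29 in naive mice (n = 12 each), so the groups overlapped. The difference was 0.53 (SE 0.14, 95% interval 0.23 to 0.83, adjusted p = 1 from limma). Against saline it differed by -0.44 with ketamine (SE 0.21, adjusted p = 0.754), -0.40 with PCP (SE 0.20, adjusted p = 1) and -0.23 with memantine (SE 0.24, adjusted p = 1). At 1 h it differed by -1.23 with PCP (SE 0.49, adjusted p = 0.997) and by -1.01 with ketamine (SE 0.49, adjusted p = 1).

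Cox8b levels went with the choroid plexus markers. Ttr, the transthyretin transcript abundant in the choroid plexus, ranged from 10.97 to 15.94 between arrays. On 15 arrays, none of them saline, Ttr was under 13 and Cox8b lay between 6.92 and 7.74, and on the other 45 Cox8b lay between 7.04 and 9.47. A low Cox8b was also seen with a high Ttr, as on replicate 3 of saline at 4 h (7.04 with Ttr at 15.44) and replicate 3 of memantine at 8 h (7.17 with Ttr at 15.75), both arrays of high background. Without the 7 arrays of high background Cox8b differed by 0.62 between saline and naive mice (adjusted p = 0.448 from limma) and by -0.52 with ketamine. Saline arrays had Ttr between 15.04 and 15.94, while the lowest Ttr was 11.06 in naive mice, 11.77 with ketamine, 11.55 with memantine and 10.97 with PCP. The 7 choroid plexus markers had a median difference of 0.710 between saline and naive mice (7 of 7 above 0) and of -0.828, -0.417 and -0.708 from saline with ketamine, memantine and PCP (0 of 7 above 0 in each). Ttr alone passed, between saline and naive mice (1.13, SE 0.12, adjusted p = 8.72e-05). Most of that came from 4 h, where Ttr differed by 3.93, against 0.59 at 1 h, -0.17 at 2 h and 0.18 at 8 h. The choroid plexus markers had medians of 1.031 (1 h), -0.294 (2 h, 0 of 7 above), 1.850 (4 h) and 0.353 (8 h), and Cox8b differed by 0.87, -0.24, 0.87 and 0.63 at these times. All 7 lay in the brighter 50% of the probes by their mean. Fewer cells of a type and less RNA per cell cannot be told apart in bulk tissue, and the part of the choroid plexus in the Cox8b differences was not tested.

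**Figure D5:**
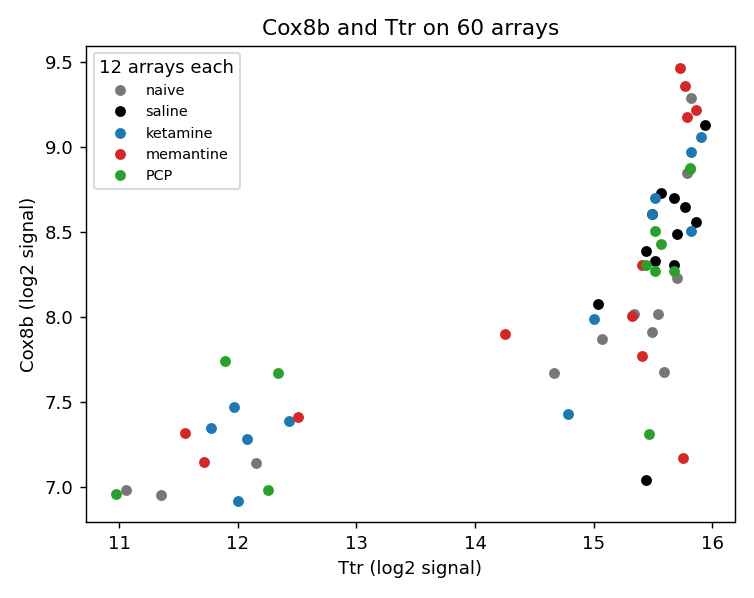
Log2 signal of Cox8b against that of Ttr on the 60 arrays, coloured by treatment. The 15 arrays with Ttr under 13 have Cox8b between 6.92 and 7.74, the other 45 between 7.04 and 9.47, and saline arrays all lie at Ttr of 15.04 or more.

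Cox7a1 was called in saline against naive mice only with the slide as a block. Without the block the difference was 0.24 (SE 0.14, adjusted p = 1). With the slide in the fit of the 24 arrays it was 0.45 (SE 0.12, adjusted p = 0.0447), the only member of 91 among 4.04% of all probes past the threshold. With the slide in a fit of all 60 arrays it was 0.26 (adjusted p = 0.568). Naive mice at 8 h had levels of 7.17, 8.40 and 8.65, and saline-treated mice at 8 h 8.97, 8.81 and 8.67. Replicate 1 of naive mice lay far below every other array, and without it the blocked difference was 0.02 (adjusted p = 0.991). It was the same without replicate 3 of saline at 2 h, the only other naive or saline array of that slide, and from 0.40 to 0.60 without any other single array. The call was lost in 14 of the 24 fits that left out 1 array, and in some of the others Cox8b (4 fits) and Atp5md, a small Fo-associated subunit (3 fits), were called as well. Replicate 1 of naive mice at 8 h and replicate 3 of saline at 2 h were arrays of high background (5th percentile 710.9 and 482.2). At 8 h alone the difference of Cox7a1 was 0.74 (SE 0.24, adjusted p = 0.418), and without replicate 1 of naive mice 0.29. The 6 striated muscle markers, 5 of them in the dimmer 50% of the probes, had a median difference of 0.073 between saline and naive mice, and the 8 markers of pericytes and smooth muscle one of -0.052.

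Of the other restricted forms, Cox6a2, the muscle form of subunit 6a, had a median level of 10.05 on saline arrays and of 9.93 to 10.05 in the other treatments, which overlapped. Cox6b2, the testis form of subunit 6b, differed by 0.22 between saline and naive mice (SE 0.12, adjusted p = 1) and by -0.07, -0.11 and -0.02 from saline with ketamine, memantine and PCP. Cox4i2, the lung form of subunit 4, differed by at most 0.07 in either direction over the 4 comparisons, and its common form Cox4i1 by at most 0.08. Cox8c, a testis form, differed by -0.17 with ketamine (SE 0.10, adjusted p = 0.785). Atp5j2, the f subunit of the Fo part, was 14.38, 14.44 and 14.21 in saline-treated mice at 8 h and 14.12, 14.03 and 14.01 in naive mice. The groups did not overlap, in a gene named for its small p, and the share of probes without overlap was not counted. The difference was 0.29 (SE 0.11, adjusted p = 0.459 from limma).

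Over the course from 1 to 8 h no member passed the test. The time factor over saline and the drugs passed for 0 of 91 members (0.261% of all probes), with 5 members at an unadjusted p under 0.05 (5.49%, against 5.83% of all probes). Comparing 8 h with 1 h within each of the 5 treatments, 0 of 455 tests passed (0.0172% of all tests) and 8 had an unadjusted p under 0.05 (1.76%, against 5.23%). The members' median at 8 h against 1 h was 0.032 in naive mice, 0.071 with saline, 0.044 with ketamine, 0.018 with memantine and 0.035 with PCP. The drug by time interaction passed for 0 of 91 members and 0% of all probes, with 1 member, Cox7a1, at an unadjusted p under 0.05 (1.1%, against 2.76%).

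Sdhaf3, an assembly factor that helps to mature the iron-sulfur subunit of complex II, had the smallest p of the time factor. Over saline and the drugs the later times differed from 1 h by -0.03 (2 h), -0.07 (4 h) and -0.24 (8 h, SE 0.08, adjusted p = 0.636). In naive mice it was 9.53, 9.99 and 9.77 at 1 h and 9.28, 9.31 and 9.38 at 8 h (difference -0.44, SE 0.15, adjusted p = 0.443). The 2 naive groups did not overlap, in a gene named for its smallest p, and the share of probes without overlap was not counted. The difference was -0.09 with saline, -0.30 with ketamine, -0.39 with memantine (adjusted p = 0.529) and -0.18 with PCP. Ndufa11 differed from 1 h by 0.15 (2 h), 0.15 (4 h) and 0.18 (8 h, SE 0.06), short of the threshold (adjusted p = 0.798 from limma).

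Other genes of the pathway were measured beside the members. They were 78 genes in lists of mitochondrially encoded transcripts, cytochromes, assembly factors under other names, biogenesis regulators, carriers and tricarboxylic acid cycle enzymes. None passed in any of the 27 comparisons. In the mean of the 4 times, 42 of 78 lay above saline with ketamine (median 0.008), 36 with memantine (-0.006) and 34 with PCP (-0.018), and 41 lay above naive mice with saline (0.006). Unadjusted p-values under 0.05 numbered 3, 4, 5 and 2.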

How the data were processed

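Hippocampal RNA was hybridised to 60 arrays. The authors deposited linear intensities of the probes from BeadStudio, neither background corrected nor scaled between arrays, and log2 values described as background subtracted and quantile normalized, used here as an alternative. These log2 values lay on average 0.0554 from the log2 of quantile normalized, uncorrected intensities. From the intensities, background was corrected by normexp (offset 50), followed by log2 transformation and quantile normalization, and group means were fitted with limma 3.58.1 in R 4.3.3, without a filter. Means of 4 times used the 24 arrays of both treatments, single times all 60, and the time and interaction F tests the 48 of saline and the drugs. P-values were Benjamini-Hochberg adjusted over 45281 probes, of which 34885 carried 1 symbol, 18 several and 10378 none.

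Members and lists were chosen with earlier results of these data known. Genes named for their values came from called members, the 3 of smallest p per comparison, fixed examples of each role and restricted complex IV forms. Not every gene of smallest p was named. Ndufb7, Ndufb3, Ndufs7, Ndufa5, Atp5md and the ribosomal proteins were added after their values were seen. The lists also covered neurons, interneurons, glia, vessels, erythroid cells, muscle, striatum and choroid plexus, and Ttr alone of them passed. Some fixed examples were not analysed here. The number of arrays limits the precision. The fits were tested on simulated data. Alternatives were the background correction and offset, the authors' values, the brighter 50% of the probes, slide and replicate blocks, other variances, other sets of arrays, every member probe and each array left out.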

Additional observations from a re-analysis of the deposited data

How the results depend on the processing

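The count of members past the adjusted threshold was 0 in all 11 families of tests and stayed 0 under every alternative run without the slide as a block. With that block in the 24-array fit of saline against naive mice it was 1, Cox7a1 (0.45, adjusted p = 0.0447), and in the fit of all 60 arrays with the slide, added after the data were examined, it was 0. Leaving out each of the 24 arrays from the blocked fit, also added after the data were examined, lost the call in 14 cases (adjusted p from 0.00834 to 0.991 over the 24). The difference fell to 0.02 without replicate 1 of naive mice at 8 h or replicate 3 of saline at 2 h. From 0 to 3 members were then called, Cox7a1 in 10 fits, Cox8b in 4 and Atp5md in 3. Without the block, leaving out 1 array in turn, every count stayed at 0 and the members' median ranged from -0.021 to 0.023 with ketamine, -0.010 to 0.030 with memantine, -0.030 to -0.002 with PCP and 0.034 to 0.076 for saline against naive mice. For memantine at 2 h it ranged from 0.053 to 0.231, and the members at an unadjusted p under 0.05 from 1 (without memantine replicate 1) to 26, with 4 without saline replicate 2. The cause was not tested.

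Arrays were not paired by their replicate number (12 of 48 same-numbered pairs correlated above 0.1). With the replicate number as a block the counts of calls stayed at 0, and the members at an unadjusted p under 0.05 at 2 h with memantine were 21 in place of 22. At the methods' thresholds for p and fold change with ordinary variances 0 members passed in any of the 4 averaged comparisons, with 32 of all probes past for ketamine, 34 for memantine, 12 for PCP and 13 between saline and naive mice. Dim probes limit what can be said of Ndufs1, Sdha, Ndufaf6, Cox4i2, Cox7b2, Cox8c and Uqcrfs1.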
